A study of Mus musculus with 5 samples.

Results

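The genes that encode the proteins of the cytosolic ribosome were followed through the cell classes of a mouse mammary tumour. Members were symbols made of Rpl or Rps and digits, with an optional final a, l, x or y, together with Rpsa, Rplp0, Rplp1 and Rplp2. Names ending in -ps were dropped, and at least 100 UMIs (unique molecular identifiers, each counting 1 captured RNA molecule) were required over the 5 libraries. The pattern took 82 names, of which 78 passed the minimum, out of 24299 genes with any UMI and 41028 names listed. Of the 78, 31 encode proteins of the small subunit, and 47 encode proteins of the large subunit, 3 of them stalk proteins. The 4 names under the minimum were Rpl3l with 26 UMIs, Rpl10l with 11, and Rpl6l and Rps4l with 0. The lowest member was Rpl39l with 841, most of them in fibroblast-like cells, and the next lowest was Rpl13a with 55743.

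Each ribosome carries 1 copy of most of these proteins, so their messenger RNAs are made in roughly matched amounts and are among the most abundant of a cell. Most of them open with a run of pyrimidines (a terminal oligopyrimidine tract), through which growth signalling sets their translation. The small subunit reads the messenger RNA, the large subunit joins the amino acids, and the stalk of the large subunit recruits the translation factors.

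The tissue was mammary tumour of PyMT mice, which carry the polyoma virus middle T antigen; the labels name no promoter, age or strain. Tumours were digested, enriched for viable cells and run on 10x Genomics single cell 3' version 2 chemistry or on BD Rhapsody whole transcriptome analysis. The groups were fresh 10x (2 libraries, called fresh 10x 1 and fresh 10x 2), 10x after 24 h (1 library, stored 10x) and BD Rhapsody (2 libraries, BD 1 and BD 2). For artificially damaged samples, the protocol left the digest overnight at 4 °C until viability had dropped by at least 20%. BD 2 is titled as fresh while its files are named for 24 h, so its storage state was left undecided and the BD libraries were compared as a platform. Nothing in the labels says whether libraries came from separate tumours, so p-values measure the spread between these libraries, which may be technical.

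The libraries held 15958 cells in all and between 29166129 and 59957945 UMIs. Cells were clustered without the ribosomal protein names, and clusters were named from fixed markers, so a class is called X-like. Epithelial-like cells were 64.5% to 69.6% of each library. Between 4.53% and 12.6% of cells lay in unnamed clusters, mostly rich in mitochondrial UMIs. Mural-like cells, at 12 and 7 in the BD libraries, are given as values only. Neutrophil-like clusters, with 2 to 12 cells a library, and dendritic-like ones, with at most 5, are left out of the orders of classes that follow. The leading genes of the T-like cluster included the immunoglobulin genes Igkc and Igha beside Cd3g and Cd3e. The BD libraries shared 24 cell barcodes, and pairs of 10x libraries shared 1 to 5.

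Sequences of 2 pairs of paralogs are shown first, because the members with the widest departures between cell classes, Rps27l and Rpl39l, each belong to such a pair. Rps27 encodes a zinc-binding protein of the small subunit, and Rps27l encodes its close relative, known as a target of p53. Rps27 lies at chr3:90212522-90213651 on the minus strand and Rps27l at chr9:66946086-66949516 on the plus strand of GRCm38. Their coding sequences, from the GENCODE annotation with the stop codon, both had 255 bases. They differed at 61 bases, 53 of them at the last position of a codon, and were 76.1% identical. Capitals mark the differing bases:
Rps27: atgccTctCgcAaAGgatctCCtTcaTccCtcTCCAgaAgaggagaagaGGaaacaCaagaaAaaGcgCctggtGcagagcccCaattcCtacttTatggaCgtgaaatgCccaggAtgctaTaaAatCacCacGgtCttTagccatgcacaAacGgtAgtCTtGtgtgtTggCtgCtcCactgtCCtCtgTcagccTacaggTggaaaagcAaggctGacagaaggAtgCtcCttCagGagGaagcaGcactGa
Rps27l: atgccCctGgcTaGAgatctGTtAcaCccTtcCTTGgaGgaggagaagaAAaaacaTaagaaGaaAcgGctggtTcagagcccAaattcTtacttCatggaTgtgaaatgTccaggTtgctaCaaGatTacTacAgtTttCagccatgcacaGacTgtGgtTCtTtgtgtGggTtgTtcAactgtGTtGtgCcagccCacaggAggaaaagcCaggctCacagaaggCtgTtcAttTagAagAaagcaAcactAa

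Rpl39 encodes a small protein that lines the exit tunnel of the large subunit, and Rpl39l is an intron-containing autosomal relative known from male germ cells. Rpl39 lies at chrX:37082520-37085402 on the minus strand and Rpl39l at chr16:10170226-10174911 on the plus strand of GRCm38. Their coding sequences had 156 bases each, differed at 23, 16 of them at the last position of a codon, and were 85.3% identical. Capitals again mark the differing bases:
Rpl39: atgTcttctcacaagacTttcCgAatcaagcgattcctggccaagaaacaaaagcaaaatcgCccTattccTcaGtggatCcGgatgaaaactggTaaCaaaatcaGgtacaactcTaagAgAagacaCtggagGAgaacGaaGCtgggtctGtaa
Rpl39l: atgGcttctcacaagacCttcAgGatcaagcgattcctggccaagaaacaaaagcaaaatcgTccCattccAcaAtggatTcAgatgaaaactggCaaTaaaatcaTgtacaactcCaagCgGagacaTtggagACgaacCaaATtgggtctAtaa

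The tract at the transcription start was looked for because it is the sequence feature these genes are known to share. A match was a C followed by at least 5 bases that are each C or T, on the gene's strand, beginning within 5 bases of the annotated start. It was present in 25 of the 58 members with a RefSeq start window (43.1%) and in 3229 of 27025 genes of that table (11.9%). Windows of 30 bases around the start, from RefSeq on GRCm38.p6, are shown for members that departed in the comparisons that follow. Capitals mark the runs of C and T:
Rps27 at chr3:90213634-90213663 minus: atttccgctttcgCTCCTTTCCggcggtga
Rps27l at chr9:66946071-66946100 plus: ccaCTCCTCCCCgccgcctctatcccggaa
Rpl39l at chr16:10170213-10170242 plus: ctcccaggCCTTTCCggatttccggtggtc
Rpl38 at chr11:114668565-114668594 plus: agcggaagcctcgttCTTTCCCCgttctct
Rps10 at chr17:27635230-27635259 minus: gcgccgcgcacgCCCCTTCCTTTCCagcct
Rps28 at chr17:33824548-33824577 minus: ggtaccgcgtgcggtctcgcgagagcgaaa
By this search Rps27, Rpl38 and Rps10 had the tract at the annotated start, and Rps27l, Rpl39l and Rps28 did not. The last says only that these letters were not found there in this annotation.

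The ribosomal protein genes took a larger part of all UMIs on 10x than on BD Rhapsody. Their summed share was 19.1% and 19.2% in the fresh 10x libraries, 20.5% after storage on 10x, and 11.7% and 12.2% in the BD libraries. The platforms did not overlap. The mean was 19.6% ± 0.805 (SD, n = 3) on 10x and 11.97% ± 0.320 (SD, n = 2) on BD Rhapsody, a ratio of 0.610. The exact two-sided permutation p was 0.1, the smallest that 3 against 2 libraries can give. Mitochondrial transcripts moved the other way, with 6.64%, 7.77% and 8.16% of UMIs on 10x and 15.9% and 20.1% on BD Rhapsody. With them left out, the ribosomal share was 20.5%, 20.8% and 22.4% on 10x and 14.0% and 15.3% on BD Rhapsody, still without overlap.

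UMIs were spread evenly over the members. Together they held 35436095 UMIs, and the 5 most abundant held 12.4% of these. Among those 5 were Rpl23, Rps24, Rps27a, which is made as a fusion of ubiquitin and a small-subunit protein, and Rpl13. Rpl23, a large-subunit protein, stood at 48.0, 47.3 and 51.2 UMIs per 10000 in the fresh 10x 1, fresh 10x 2 and stored 10x libraries and at 30.05 and 31.5 in BD 1 and BD 2. Values per 10000 are given in that order of libraries from here on.

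T-like cells had the highest ribosomal share of the 6 classes followed on 10x, and fibroblast-like, mural-like, endothelial-like and macrophage-like cells lay below epithelial-like cells in all 5 libraries. Epithelial-like cells had shares of 20.2%, 20.0%, 21.3%, 12.9% and 13.2%. T-like cells had 26.1%, 24.8%, 26.0%, 11.6% and 14.3%. On BD Rhapsody the lead of T-like cells was gone in 1 library and small in the other. Those T-like shares include some immunoglobulin-rich cells, which are taken up below.

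**Figure D1:**
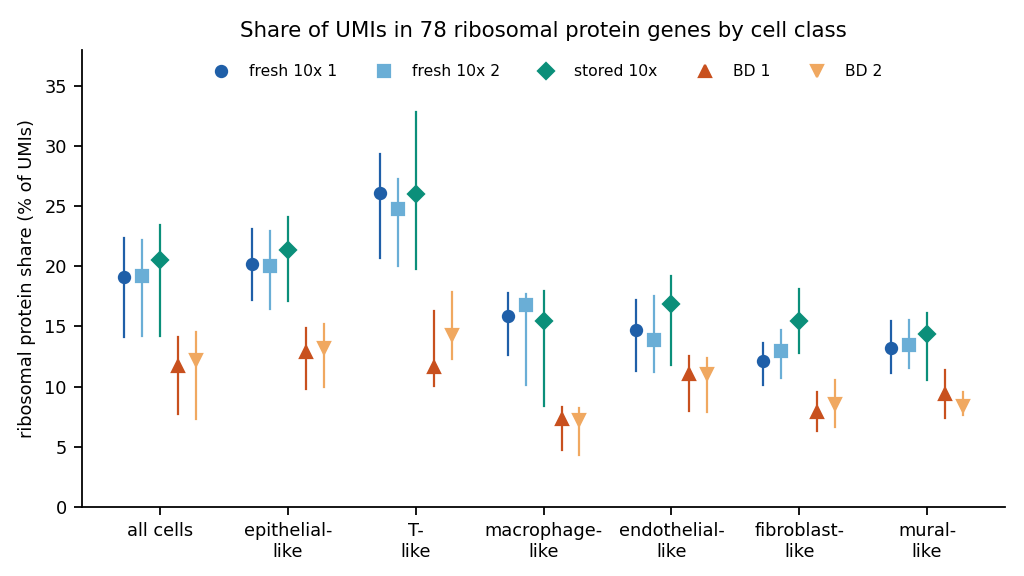
Ribosomal protein share of UMIs (percent, y axis) by cell class (x axis) in the 5 libraries. Points are shares over summed UMIs and bars span the interquartile range over cells; the 10x points lie above the BD points in every class, and T-like cells reach 26.1% on 10x.

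Endothelial-like cells stood at 14.7%, 13.9%, 16.9%, 11.04% and 11.1%. Fibroblast-like cells stood at 12.1%, 12.9%, 15.4%, 7.90% and 8.53%. Macrophage-like cells stood at 15.9%, 16.8%, 15.5%, 7.34% and 7.22%. The lowest of the 6 classes was thus the fibroblast-like on 10x, apart from the stored library, where mural-like cells were lower, and the macrophage-like on BD Rhapsody. Mural-like cells had 13.2%, 13.5%, 14.4%, 9.35% and 8.35%.

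Set against the epithelial-like cells of the same library, the share was lower by 6.12 ± 1.43 percentage points in fibroblast-like cells (SD, n = 5). It was lower by 4.98 ± 1.17 points in macrophage-like and by 4.00 ± 1.97 points in endothelial-like cells. Each was lower in 5 of 5 libraries, with the smallest exact sign-flip permutation p that 5 libraries allow, which was 0.0833 after Benjamini-Hochberg adjustment over the 4 classes. The T-like difference was 3.02 ± 2.99 points, higher in 4 of 5 libraries (exact permutation p = 0.1875). Per library it was 5.89, 4.72, 4.66, -1.25 and 1.10 points, so the 10x libraries all lay above the BD libraries. Cells with at least 5% immunoglobulin UMIs were counted in the T-like class, 9 of them in BD 1, 3 in BD 2, 1 in stored 10x and 0 in the fresh libraries. Without them, a setting chosen after seeing the data, the differences were 5.89, 4.72, 5.52, 0.408 and 1.65 points, and the platforms still did not overlap.

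The loss of share on BD Rhapsody was uneven between classes. The ratio of the BD to the 10x mean was 0.730 in endothelial-like, 0.647 in mural-like, 0.634 in epithelial-like, 0.608 in fibroblast-like, 0.505 in T-like and 0.454 in macrophage-like cells. Relative to epithelial-like cells, the macrophage-like share was 0.783 ± 0.0568 of the epithelial-like one on 10x (SD, n = 3) and 0.560 ± 0.0161 on BD Rhapsody (SD, n = 2), with no overlap. T-like cells stood at 1.25 ± 0.0385 on 10x and 0.993 ± 0.128 on BD Rhapsody, also with no overlap. The exact permutation p for the log ratio was 0.1 in both, 0.2 after adjustment over the 4 classes, and 3 against 2 libraries cannot go below 0.1. The T-like values here include the cells with at least 5% immunoglobulin UMIs. Without those cells the T-like share was 13.3% and 14.8% in BD 1 and BD 2, above the epithelial-like 12.9% and 13.2%. Fibroblast-like cells stood at 0.657 and 0.631, with overlapping libraries. Median UMIs per cell were 2513 to 3413.5 in T-like cells on 10x and 4690 to 6152 on BD Rhapsody, and in macrophage-like cells 4600.5 to 6553 and 8055 to 11500.5. In fibroblast-like cells, whose relative share overlapped, they were 11675.5 to 14493 on 10x and 15395 to 18742.5 on BD Rhapsody, so depth did not overlap there either. Median UMIs overlapped between platforms in epithelial-like, endothelial-like and mural-like cells. The part of depth in the result was not tested.

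Epithelial-like cells were not uniform. Over 10 or 11 epithelial-like clusters the share ran from 18.3% to 25.1% in fresh 10x 1 and from 17.7% to 22.1% in fresh 10x 2. It ran from 18.9% to 25.6% in stored 10x, from 11.2% to 14.6% in BD 1 and from 11.2% to 15.3% in BD 2. In 4 of 5 libraries, all but fresh 10x 2, this range was wider than the difference between epithelial-like and endothelial-like cells. In fresh 10x 1 this rested on a cluster of 13 cells. The next highest cluster there stood at 23.1%, and up to that value the range was narrower than the difference.

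Stored 10x had a share 1.39 percentage points above the fresh mean, against a fresh SD of 0.0730, with 1 stored library and so no test. The difference was 2.90 points in fibroblast-like, 2.58 in endothelial-like, 1.23 in epithelial-like and 0.583 in T-like cells, and -0.859 in macrophage-like cells. The T-like value lay within the fresh SD of 0.934. The fibroblast-like class joined clusters of different share, whose numbers differed between libraries. The cluster led by Clec3b and Efemp1, genes of resting connective tissue, held 35 and 44 cells in the fresh libraries and 234 in the stored one. The cluster led by Spon1, Thbs4 and Postn, genes of an activated matrix, held 158, 75 and 80. Within the Clec3b cluster the share was 14.98% and 15.2% fresh and 16.3% stored, and within the Postn cluster it was 11.5% and 11.6% fresh and 13.2% stored. The stored library was thus higher in each, by less than in the joined class.

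The balance between subunits also differed by platform. Small-subunit genes took 43.3%, 43.9% and 42.9% of member UMIs on 10x and 48.7% and 48.6% on BD Rhapsody. In the 6 classes they took 42.4% to 45.2% on 10x and 46.0% to 50.9% on BD Rhapsody. No class overlapped between platforms.

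To ask which subunits departed from the shift all members shared, libraries were scaled on the members alone, so that a log2 difference of 0 means moving with the other ribosomal protein genes. Between platforms, 41 of 78 members departed by edgeR's quasi-likelihood test with Benjamini-Hochberg adjustment over all genes, 19 higher and 22 lower on BD Rhapsody. On this scale 69.4% of the 16260 genes tested were called, with a median of 0.88 on the log2 scale, so a call by itself does not set a member apart from other genes. Of the 31 small-subunit members 8 were higher and 7 lower, of the 44 other large-subunit members 11 were higher and 15 lower, and of the 3 stalk members none was called. The stalk genes Rplp0, Rplp1 and Rplp2 had log2 departures of -0.22, 0.14 and 0.16.

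**Figure D2:**
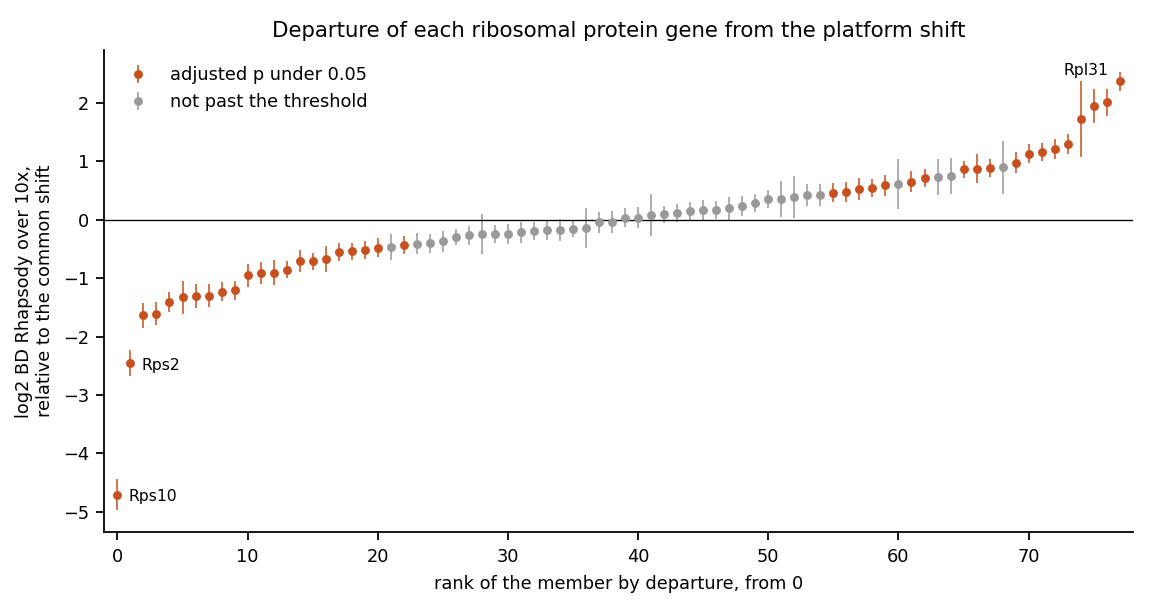
Log2 difference between BD Rhapsody and 10x relative to the common shift (y axis) for the 78 members by rank of departure (x axis), with some of those furthest from 0 named; bars are ± 1 standard error. Rps10 and Rps2 lie lowest at -4.71 and -2.46, and Rpl31 lies highest at 2.37.

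Rps10, a small-subunit protein, departed most. It had 39.4, 40.1 and 32.2 UMIs per 10000 on 10x and 0.980 and 0.712 on BD Rhapsody. The platforms were far apart, and the departure was -4.71 on the log2 scale (SE 0.27, edgeR adjusted p = 1.56e-05). The annotation holds a read-through gene, RPS10-NUDT3, that overlaps 475 of the 2311 exon bases of Rps10 (20.6%) on the same strand, and its name is not among the names used here. The 2 pseudogenes with a near-identical end had 0 UMIs in all libraries.

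Rps2, a protein at the entry of the messenger RNA channel, had 18.0, 21.4 and 15.1 UMIs per 10000 on 10x and 1.99 and 1.95 on BD Rhapsody. The groups did not overlap, and the departure was -2.46 (SE 0.22, edgeR adjusted p = 4.95e-05). The annotation holds 43 near-identical copies of its end, and those listed had 0 UMIs in every library. The other members lower by at least 1 were Rpl19 (-1.64), Rpl10 (-1.61), Rpl10a (-1.41), Rpl36 (-1.33), Rpl11 (-1.31), Rpl8 (-1.30), Rpsa (-1.23) and Rpl21 (-1.21). Rpl10 is among the last proteins to join the large subunit and Rpl11 is known for binding Mdm2.

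Rpl31, a protein at the rim of the exit tunnel, rose most. It had 5.30, 5.85 and 6.99 UMIs per 10000 on 10x and 18.1 and 18.8 on BD Rhapsody. It went against the common loss in both BD libraries, with a departure of 2.37 (SE 0.16, edgeR adjusted p = 2.16e-05). Rps26, a small-subunit protein at the exit of the messenger RNA channel, had 15.3, 16.1 and 26.4 on 10x and 46.5 and 44.8 on BD Rhapsody. Its departure was 2.01 (SE 0.23, edgeR adjusted p = 0.000146), with the stored library between the fresh ones and BD Rhapsody.

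Rpl29 was scarce throughout, with 2.42, 1.12 and 1.52 UMIs per 10000 on 10x and 3.97 and 3.73 on BD Rhapsody. The BD libraries lay above every 10x library, with a departure of 1.94 (SE 0.29, edgeR adjusted p = 0.000541). A near-identical listed copy, Gm3550, held 112, 89, 170, 1300 and 963 UMIs, beside 7048, 3358, 8138, 23810 and 18645 of Rpl29. How reads were divided between the pair was not tested. Rps28 had 6.13, 8.07 and 36.9 on 10x and 30.4 and 34.8 on BD Rhapsody, so the stored library lay above both BD libraries. It departed by 1.72 (SE 0.64, edgeR adjusted p = 0.0418), by 2.92 without stored 10x and by 1.33 without fresh 10x 1, and without fresh 10x 2, BD 1 or BD 2 the adjusted p was 0.0989, 0.174 and 0.143. Rpl23a (1.30), Rps25 (1.16) and Rps13 (1.13) were also higher by at least 1.

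In UMIs per 10000, with no scaling on the members, 55 of the 78 lay below every 10x library in both BD libraries, 15 overlapped and 8 lay above. Among the 8 were Rpl23a, Rpl29, Rpl31, Rpl5, Rps13, Rps25 and Rps26. No such count was made over all genes, so this one does not set the members apart from other genes. With scaling on all genes, edgeR's test called 48 lower and 3 higher (Rpl29, Rpl31 and Rps26), where 47.7% of all genes were called. The median member stood at -0.85 and the median gene at 0.02 on the log2 scale. Across the 78 members the departure had a Spearman correlation of -0.39 with coding length, -0.28 with GC content of the transcript and -0.09 with the number of near-identical copies. These are descriptions across genes of the same libraries. The number of calls rested on single libraries: it was 26 without BD 2 and 60 without stored 10x.

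Rps10 and Rpl31 departed in the same direction in each of the 5 classes tested. As a share of member UMIs, Rps10 was lower on BD Rhapsody by 4.28 to 4.98 on the log2 scale, for instance 2.10%, 2.12% and 1.58% against 0.0832% and 0.0568% in epithelial-like cells. Rpl31 was higher by 2.24 to 2.53, for instance 0.256%, 0.268% and 0.304% against 1.55% and 1.65% in T-like cells. No library of either platform overlapped in these. A term for class by platform, added after seeing the data, called 0 of 78 members by edgeR's test in each of the 4 classes against epithelial-like cells. At an unadjusted p under 0.05 it had 6 members in endothelial-like, 3 in fibroblast-like, 2 in macrophage-like and 3 in T-like cells. By adjusted p it called 0.0158%, 0.127%, 8.92% and 0.087% of all genes, in that order. No share of all genes was taken at the unadjusted threshold, so nothing about the members is read from the unadjusted counts.

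The stored 10x library had more UMIs of the shortest ribosomal protein genes than the fresh ones. Against the fresh libraries, 3 of 78 members were higher in stored 10x and 0 lower by edgeR's test, where 0.28% of the 15353 genes tested were called. At an unadjusted p under 0.05 there were 32, and DESeq2 called 14 higher and 1 lower. The 0.28% applies to edgeR's adjusted calls only, so these further counts stand here without a background. The 3 were Rps28, Rps29 and Rpl38. Rps28 stood at 6.13 and 8.07 UMIs per 10000 fresh and 36.9 stored, Rps29 at 13.8 and 13.3 fresh and 43.3 stored, and Rpl38 at 14.97 and 15.5 fresh and 37.5 stored. All 3 stored values lay far above both fresh ones. The log2 departures were 2.40 (SE 0.18), 1.70 (SE 0.11) and 1.32 (SE 0.11), with edgeR adjusted p-values of 0.0287, 0.0215 and 0.0368. Rps28 and Rps29 belong to the small subunit, Rps29 being a zinc-binding protein at its head, and Rpl38 belongs to the large subunit and is known for its part in translating Hox messenger RNAs. With 1 stored library, its spread was taken to equal that of the fresh pair, so storage and that library cannot be told apart.

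**Figure D3:**
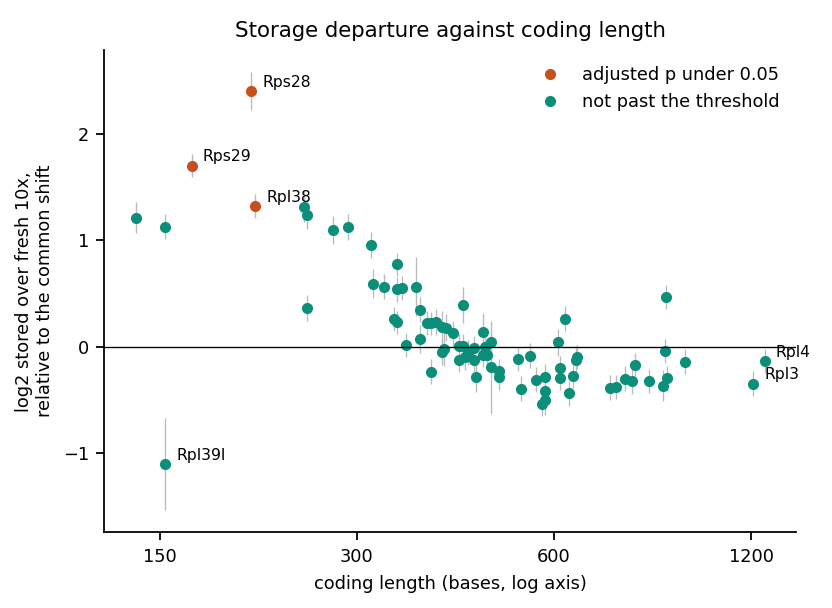
Log2 difference between stored and fresh 10x relative to the common shift (y axis) against coding length in bases (x axis, log scale) for the 78 members; bars are ± 1 standard error. Members of at most 300 bases lie above 0 except Rpl39l at -1.10, and the values decline toward longer members.

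The departure followed coding length over the whole set. The Spearman correlation was -0.74 with coding length over the 78 members, and 0.06 with GC content and -0.03 with mean level, as descriptions across genes. Of the 11 members with a coding sequence of at most 300 bases (138 to 291), a limit set after the values were seen, 10 lay above the common shift, with a median of 1.21. Of the 67 longer members 26 lay above it, with a median of -0.08. Rps21, Rps27, Rpl41, Rpl39, Rpl37 and Rpl37a had departures of 1.31, 1.24, 1.21, 1.13, 1.12 and 1.09 and edgeR adjusted p-values from 0.0569 to 0.0624, just outside the threshold. Rps27l, as short as Rps27, had 0.36, and Rpl39l, with few UMIs, had -1.10 (SE 0.43, edgeR adjusted p = 0.289).

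As a share of member UMIs, the 11 short members took 8.19% and 7.99% in the fresh 10x libraries, 18.2% in stored 10x, and 16.2% and 16.4% in BD 1 and BD 2. BD 1, titled as fresh, thus lay near the stored 10x library and above the fresh ones. In the 6 classes the share was 7.68% to 8.89% fresh on 10x, 18.1% to 19.8% stored and 15.7% to 18.4% on BD Rhapsody. The fresh 10x libraries did not overlap with the others in any class. In epithelial-like cells alone it was 8.14% and 7.94% fresh and 18.1% stored, close to the values over all cells. Mitochondrial UMIs were 6.64% and 7.77% fresh and 8.16% stored on 10x, and their part in the result was not tested.

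**Figure D4:**
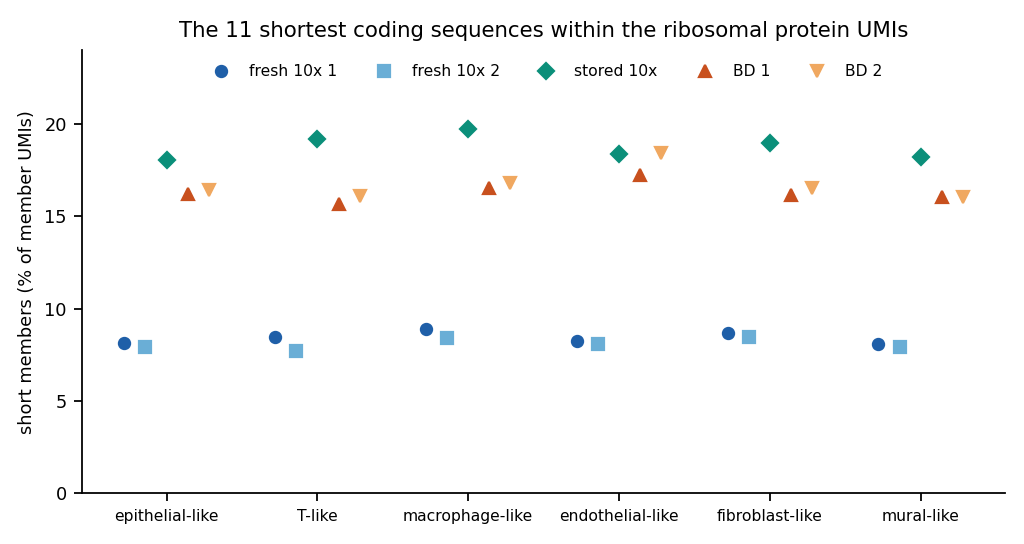
Share of member UMIs (percent, y axis) held by the 11 members with coding sequences of at most 300 bases, by cell class (x axis) and library (points, no error bars). Fresh 10x libraries lie between 7.68% and 8.89% and all others between 15.7% and 19.8%.

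Between cell classes most members moved together, and the departures were small next to those between platforms. Scaled on the members, edgeR's test with Benjamini-Hochberg adjustment called 17 members in endothelial-like against epithelial-like cells (9 higher, 8 lower), where 54.8% of the 12205 genes tested were called. It called 24 in fibroblast-like cells (12 higher, 12 lower, background 66.5%), 19 in macrophage-like cells (10 and 9, background 59.3%) and 32 in T-like cells (15 and 17, background 48.9%). Apart from Rps27l and Rpl39l, every called departure lay between -0.58 and 1.01 on the log2 scale. All 4 comparisons use the same epithelial-like values.

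In each of these comparisons the share of members called lay below that of all genes. Scaling on the members favours this by itself, so nothing about the members is read from it. Members called in several classes had 1 direction in all of them, which the shared epithelial-like values favour. Rps27l and Rpl13a were lower, and Rps29 and Rpl30 higher, in all 4 classes. Of the stalk genes, Rplp0 (0.33) and Rplp1 (0.56) rose in fibroblast-like cells with edgeR adjusted p-values of 0.00303 and 3.33e-06, and no stalk gene was called in another class.

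Rps27l stood highest in epithelial-like cells among the 6 classes in every library. It had 10.4, 11.3, 13.5, 9.09 and 9.66 UMIs per 10000 there, and 2.17, 4.01, 4.02, 2.93 and 2.20 in T-like cells. Macrophage-like cells had 3.81, 4.86, 4.22, 2.80 and 2.18, and fibroblast-like cells 4.43, 5.04, 5.49, 2.64 and 2.77. Endothelial-like cells had 2.77, 3.33, 7.16, 3.55 and 4.01. None of these classes reached the epithelial-like level in any library. Relative to the members' shift, Rps27l fell by 2.01 in T-like cells (SE 0.19, edgeR adjusted p = 1.23e-09). It fell by 1.09 in macrophage-like (SE 0.18, edgeR adjusted p = 1.08e-05), 1.08 in endothelial-like (SE 0.19, 1.89e-05) and 0.80 in fibroblast-like cells (SE 0.18, 0.000305).

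Its paralog Rps27 did not follow. Relative to the members Rps27 rose in T-like cells by 0.48 (SE 0.10, edgeR adjusted p = 0.000236) and in endothelial-like cells by 0.28 (SE 0.10, edgeR adjusted p = 0.0186), a call lost when fresh 10x 1, fresh 10x 2, stored 10x or BD 2 was left out (edgeR adjusted p from 0.0576 to 0.1004). In fibroblast-like and macrophage-like cells it stood at 0.02 and 0.04. Rps27 had 13.3, 11.3, 28.5, 9.64 and 10.2 UMIs per 10000 in epithelial-like cells and 27.2, 19.2, 53.0, 10.5 and 14.2 in T-like cells. A near-identical gene, Rps27rt, held 1197, 1848, 2323, 5401 and 5016 UMIs, and whether it shares reads with Rps27 was not tested.

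Rps27l also varied among the epithelial-like clusters, from 6.97 to 17.6 UMIs per 10000 on 10x and from 5.39 to 12.99 on BD Rhapsody. The lowest of them on 10x, pooled over the libraries (6.97), lay above the endothelial-like cluster pooled in the same way (3.90). It lay below endothelial-like cells of the stored 10x library alone (7.16). It also lay below the neutrophil-like cluster on 10x (7.91), a value from 40 UMIs in 19 cells. Free epithelial RNA was measured by Krt8, Krt18, Epcam, Csn3 and Wfdc18, which summed to 2.42% to 2.91% of UMIs in epithelial-like cells and to 0.0361% to 0.737% in the other 4 classes tested. In fibroblast-like cells of fresh 10x 1 the sum was 0.0361%, the lowest of these, and Rps27l was detected in 189 of 193 cells. The highest sum, 0.737%, was in T-like cells of BD 1. The part of free RNA in Rps27l outside epithelial-like cells was not tested.

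**Figure D5:**
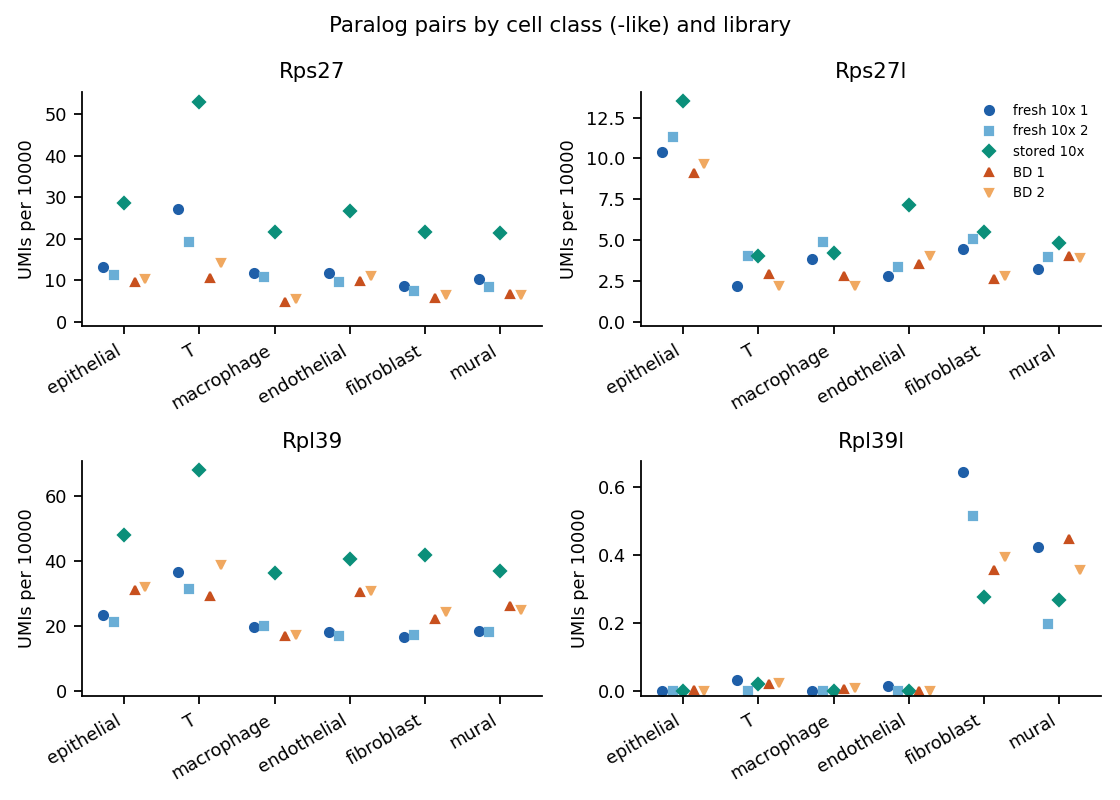
UMIs per 10000 (y axes, separate scales) of Rps27, Rps27l, Rpl39 and Rpl39l by cell class (x axis) and library (points). Rps27l is highest in epithelial-like cells among the classes drawn in every library, and Rpl39l is near 0 outside fibroblast-like and mural-like cells.

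Rpl39l was found mainly in fibroblast-like and mural-like cells. Its UMIs in the 5 libraries were 166, 98, 108, 240 and 146 in fibroblast-like cells and 2, 1, 9, 12 and 5 in epithelial-like cells, which were far more numerous. Over all libraries that gave 40.2 per 1000000 UMIs (exact Poisson interval at 95%, 37.4 to 43.2) against 0.160 (0.107 to 0.229), a ratio of 252; these intervals cover counting error only. The log2 departure was 8.52 (SE 0.30, edgeR adjusted p = 5.03e-19). A UMI of Rpl39l was found in 348 of 1189 fibroblast-like cells (29.3%) and in 19 of 10873 epithelial-like cells (0.175%), while the median UMIs per cell of both classes lay between 10956 and 18742.5. Whether the few UMIs in epithelial-like cells came from free RNA was not tested.

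Within the fibroblast-like class Rpl39l was more often found in the Postn cluster, in 40.9% of its cells on 10x and 38.2% on BD Rhapsody, than in the Clec3b cluster, with 20.8% and 24.1%. As cells of a library are not replicates, this was not tested. The level was lower in stored 10x (0.277 UMIs per 10000 against 0.643 and 0.514 fresh), where the Clec3b cluster was the larger. It was the larger in BD 1 and BD 2 too, with 247 and 180 cells against 87 and 49 in the Postn cluster. The part of cluster numbers in the level of Rpl39l was not tested. Mural-like cells held 14, 7, 3, 3 and 1 UMIs, which made 31.3 per 1000000 (20.8 to 45.3). T-like cells had 6 UMIs in all, macrophage-like cells 4 and endothelial-like cells 2. The calls of Rpl39l in T-like (3.53) and macrophage-like cells (2.40) rest on those few UMIs, and within 10x the macrophage-like value was -2.98, from 0 UMIs in each of the 3 libraries. Rpl39 itself rose in fibroblast-like cells by 0.25 (SE 0.08, edgeR adjusted p = 0.00671), so the paralogs differed in size of departure, not in direction.

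Apart from Rpl39l, whose call rests on 4 UMIs, Rps29 was the most raised member in macrophage-like cells. It took 1.52%, 1.45%, 4.20%, 3.65% and 3.67% of member UMIs there and 0.678%, 0.647%, 2.02%, 2.03% and 2.06% in epithelial-like cells. Every library showed the rise, although the libraries themselves differed by more than the classes. The departure was 1.01 (SE 0.09, edgeR adjusted p = 4.37e-10), and it was 0.60 in endothelial-like, 0.45 in T-like and 0.36 in fibroblast-like cells. Rpl30, a large-subunit protein, rose by 0.27 to 0.32 in the 4 classes.

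Rpl13a, which is known for leaving the ribosome to silence inflammatory messenger RNAs, took 0.167%, 0.191%, 0.169%, 0.138% and 0.147% of member UMIs in epithelial-like cells. In macrophage-like cells it took 0.0975%, 0.170%, 0.122%, 0.0893% and 0.0866%. It was lower in every library, with departures of -0.55 in macrophage-like, -0.58 in endothelial-like, -0.57 in fibroblast-like and -0.40 in T-like cells. The edgeR adjusted p in T-like cells was 0.038 and passed the threshold in 7 of 13 alternatives. Its exons overlap those of Gm45713 over 29.4% of their bases, and that name had 1 UMI in all.

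Scaled on all genes, the members fell almost as a whole outside the epithelial-like cells. By edgeR's test 74 of 78 were lower in endothelial-like cells (59.6% of all genes called), 73 lower and 1 higher in fibroblast-like (71.3%), and 75 lower and 1 higher in macrophage-like cells (64.8%). The medians were -0.74, -0.77 and -0.65, while the median of all genes stood at -0.28, -0.21 and -0.29. In T-like cells 21 were lower and 3 higher (58.2%), with a median of -0.16 against -0.42 for all genes, and leaving out 1 library moved the T-like count between 5 (without stored 10x) and 25. The T-like direction differs from that of the summed share on 10x, and its median was 0.01 to 0.14 without stored 10x, BD 1 or BD 2.

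The neighbours of these genes in the translation machinery were followed in lists. Between platforms, scaled on all genes, where 47.7% of all genes were called, 5 of 6 elongation factors were lower on BD Rhapsody and 0 higher, with a median of -0.56. Of 28 initiation factors 11 were lower and 5 higher, and of 75 mitochondrial ribosomal proteins 49 were lower and 5 higher (median -0.64). Of 30 ribosome biogenesis genes 10 were lower and 10 higher. Of 13 genes of the mitochondrial genome 11 were higher and none lower, with a median of 1.81.

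Against epithelial-like cells, with the same scaling, all 6 elongation factors were lower in endothelial-like, fibroblast-like and macrophage-like cells, and 3 of 6 in T-like cells. Of 74 mitochondrial ribosomal proteins tested, 65 were lower in endothelial-like, 66 in fibroblast-like, 70 in macrophage-like and 61 in T-like cells, and 1 was higher, in fibroblast-like cells. Biogenesis genes were lower in 19, 26, 20 and 11 of 30 in that order, with 1 higher in T-like cells. Of all genes 59.6%, 71.3%, 64.8% and 58.2% were called in these comparisons in either direction, and the median of all genes was itself below 0, as given earlier. Nothing particular to the lists is read from these counts.

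Some ribosomal names lay outside the symbol rule. Rps3a1, a small-subunit protein, had 43.2, 39.8, 31.7, 19.4 and 20.0, and Fau, a fusion with a small-subunit protein, had 30.9, 31.5, 31.3, 10.2 and 12.4. Rack1, the scaffold on the small subunit, had 21.6, 20.9, 20.2, 8.96 and 8.35. The paralogs Rpl36al and Rpl22l1 had 2.32, 2.56, 2.88, 0.460 and 0.414, and 7.14, 7.14, 6.68, 3.63 and 3.57. All 5 were lower in both BD libraries than in any 10x library. The fall was not uniform over such names. Of 9 tested with scaling on all genes, edgeR's test called 7 lower and 2 higher on BD Rhapsody, where 47.7% of all genes were called. Rps27rt was among the higher ones, by 0.88 on the log2 scale.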

How the data were processed

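Single cells from mammary tumours of PyMT mice were measured in 3 10x and 2 BD Rhapsody libraries. The deposited values are UMI counts per gene and cell, as whole numbers that were not normalized. The submitters' processing notes name Cell Ranger 3.0.1 and the build mm10, without saying which files they apply to; the other steps were not stated there, nor was the counting tool for BD Rhapsody, and Drop-seq data were not analysed here. The members, gene lists and class markers were chosen with earlier results of these data known. All 5 libraries were used with no column left over.

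Cells with at least 200 genes and not called doublets were clustered (15583 of 15958; scanpy 1.11.5, 2000 variable genes, 30 components, Leiden resolution 1, ribosomal and other listed names left out), giving 21 clusters. The doublet caller marked 19 and 22 cells in the fresh 10x libraries, 1 in stored 10x and 0 in the BD libraries; in those 3 it cannot be taken to have worked. Classes needed at least 10 cells in every library to be tested. Clusters with too few markers or low depth stayed unnamed.

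UMIs were summed per library, or per class and library, and tested with edgeR 4.0.16 (quasi-likelihood, filtered on low counts, Benjamini-Hochberg over all genes, threshold 0.05), with library as a block between classes. Sizes were scaled by TMM over the members or over all genes. DESeq2 1.42.0 was an alternative. The fits were also run on simulated counts with an equal spread for all genes and libraries of a fit. Such counts cannot check whether the single stored library varied like the fresh pair. Shares were compared with exact permutation tests. Named were the members past the threshold and at least 1 from the common shift on the log2 scale, at most 12 a direction, the 5 most abundant, the stalk genes and the paralogs; Rpl13a, Rps29 and Rpl30 were added after their values were seen, for being called in all 4 classes, as was Rpl39 as partner of Rpl39l. A near-identical copy shared at least 95% identity over at least 80% of the last 400 bases. 260 -ps names that carry a member's symbol were left out. Values of some single genes are not reported here.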

Additional observations from a re-analysis of the deposited data

Results flagged for a closer look

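Rpl39l had 28 UMIs in mural-like cells, a class that entered no test because the BD libraries held 12 and 7 of its cells. The level, 31.3 per 1000000 UMIs (20.8 to 45.3), was 196 times the epithelial-like level, and a UMI was found in 23 of 174 cells. The mural-like cluster also held 3 of the 6 fibroblast markers, and the part of fibroblast RNA in this value was not tested.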

How the results depend on the processing

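The share comparisons kept their direction under every alternative run except the T-like one. Within the BD libraries, an alternative chosen after seeing the data, it was -0.0765 points with the immunoglobulin-rich cells counted in. The stored minus fresh share was 1.73 points without mitochondrial UMIs, 1.64 in filtered cells (at least 500 UMIs, at most 20% mitochondrial), 1.23 in epithelial-like cells and 0.857 as a median over cells. Leaving out 1 library at a time gave -7.91 to -7.19 points between platforms, 1.34 to 1.44 for storage, 2.31 to 4.09 for T-like, -4.55 to -3.46 for endothelial-like, -6.49 to -5.65 for fibroblast-like and -5.42 to -4.74 for macrophage-like cells.

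Counts of departing members moved more. With the title numbers of the BD and fresh 10x libraries as a replicate block, 66 departed between platforms; the samples share only a number, and their deviations had a correlation of 0.171 over 14325 genes with 2 pairs. Leaving out 1 library gave 26 to 60 departing and 39 to 59 changed between platforms. It gave 12 to 15 departing in endothelial-like, 16 to 23 in fibroblast-like, 8 to 14 in macrophage-like (8 without fresh 10x 1, 9 without fresh 10x 2 or stored 10x) and 20 to 29 in T-like cells (20 without stored 10x). With all-gene scaling it gave 55 to 71, 57 to 72, 36 to 76 and 5 to 25 changed in the same order, the macrophage-like count being 45 without stored 10x, 39 without BD 1 and 36 without BD 2, and the T-like one 14 without BD 2. For storage, DESeq2 called 15 on either scaling, epithelial-like cells alone gave 11, and with no filter on low counts edgeR called 0, with 37 at an unadjusted p under 0.05. In endothelial-like cells DESeq2 called 35, no filter 10 and the BD libraries alone 7. In fibroblast-like cells DESeq2 called 41 and the BD libraries alone 15. In macrophage-like cells DESeq2 called 33, no filter 6 and the BD libraries alone 10. In T-like cells no filter gave 15 and the BD libraries alone 19. The cause was not tested, apart from the fewer libraries or cells that some alternatives use. Shares of all genes are not given beside these counts, which show only how far the counts moved.

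Among the named members, 1 of the alternative values reversed, Rpl39l in macrophage-like cells at -2.98 within 10x, 43 lost the threshold and 470 did not change side. Rpl13a in T-like cells and Rps27 in endothelial-like cells each lost it in 6 alternatives. The filtered-cell alternative was not run for endothelial-like cells, which then number under 10 in BD 2, nor was leaving out a fresh library for the storage departures, which leaves 1 against 1. Depth limits Rpl39l outside fibroblast-like cells.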
